A study of Mus musculus with 34 samples.

Results

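The contacts of the immunoglobulin heavy-chain locus Igh with the kappa and lambda light-chain loci, Igk and Igl, were measured in 2 mouse plasmacytomas. Both loci were defined by position in the genome build mm9. Igk was taken as the 20 windows of 200 kb from 6:67000001 to 71000000, and Igl as the 10 windows from 16:18000001 to 20000000. These 30 windows are part of the 12836 windows counted. The 200 kb window that starts at 6:70600001 (70.6 to 70.8 Mb) holds the constant gene Igkc and the 3′ enhancers of Igk. The 200 kb window that starts at 16:19000001 (19 to 19.2 Mb) was taken to hold Iglc1, a lambda constant gene, from the known position of the locus and not from an mm9 annotation.

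The assay was 4C (circular chromosome conformation capture), in which DNA cut with HindIII is religated and the fragments joined to a bait, here in Igh, are sequenced. TEPC1165 and PCT4961 are plasmacytomas, tumors of antibody-secreting cells, from Balb/c mice. PCT4961 carries the genotype AID-/- BclXL, that is, it lacks the enzyme that mutates and switches antibody genes. BclXL names a survival gene, and the label does not say how it is expressed. No genotype is labelled for TEPC1165. Each tumor gave 2 libraries, and each stands for its kind as a single tumor line, so that genotype and tumor cannot be told apart. The exact bait fragment is not given in the sources used here. The highest window of chromosome 12 by reads summed over the 4 libraries was 12:114400001-114600000, and it is treated as the bait window. The 4C reads do not measure RNA, so the tumor cell type was not checked against marker genes.

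An antibody joins heavy chains with light chains of either the kappa or the lambda type. A light-chain gene is assembled from a V and a J segment next to a constant gene, and strong enhancers lie on the constant-gene side of each locus. Kappa chains are the prevailing type in mice. In the mouse Igk locus a long array of V genes precedes the J segments and the single constant gene Igkc, whereas Igl is short and has several constant genes. The RefSeq gene table of GRCm38, used for names and order only, lists 162 Igkv entries (60 of them pseudogenes), 5 Igkj segments and 1 Igkc. For Igl it lists 3 Iglv genes, 5 Iglj segments and 4 Iglc entries. In that gene order Igkc is followed by Rpia and Eif2ak3, genes of sugar metabolism and the stress response. Iglc1 is preceded by Hira, a gene for a histone chaperone, and is followed by Iglj1, Iglc3 and, at the other end of the group, Iglc2 and Iglj2.

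In TEPC1165, replicates 1 and 2 yielded 1890718 and 1776498 reads, and in PCT4961 they yielded 1668589 and 2178689. A fragment was called detected when it had at least 1 read. Between 1.12% and 1.36% of the 823057 HindIII fragments were detected per library, and 0.697% to 0.907% of those outside chromosomes 12 and 15, which hold the bait and the regions of Mycn and Myc. Libraries with the same replicate number resembled each other more than the 2 libraries of a tumor did. Over the 1209 windows of chromosomes 6 and 16, Pearson's r of log2(reads + 1) was 0.64 and 0.64 between same-numbered libraries of different tumors. It was 0.19 between the TEPC1165 libraries and 0.28 between the PCT4961 libraries. Detected fragments per window correlated at 0.857 and 0.860 between same-numbered libraries and at 0.495 and 0.509 within a tumor. Over the 30 Igk and Igl windows these were 0.982 and 0.959 between same-numbered libraries and 0.787 and 0.739 within a tumor. For log2(reads + 1) over the same 30 windows r was 0.81 and 0.68, against 0.08 for TEPC1165 and 0.40 for PCT4961. These correlations are across windows, which are not independent, and are descriptions. The 4 libraries are therefore not shown to be 4 independent readings, and values below are given for each of them. How many reads or fragments a library has in common with the library of the same number was not tested.

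Contact with Igk was concentrated on the window of Igkc. In TEPC1165, 14 and 13 of its 58 HindIII fragments were detected, and in PCT4961 15 and 14. These are 24.1%, 22.4%, 25.9% and 24.1% of the window's fragments. The 95% Wilson intervals, which cover counting error only, reached from 13.6% at the lowest to 38.4% at the highest. The values of the tumors overlap. Among the 733 windows of chromosome 6 the window ranked first in each of the 4 libraries, by the number and by the share of detected fragments.

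The remaining 19 Igk windows, which hold most of the V genes, were detected far less densely. They had 31, 28, 35 and 29 of 1187 fragments detected (TEPC1165 replicates 1 and 2, then PCT4961 replicates 1 and 2), or 2.36% to 2.95%. The Igkc window thus held 31.1%, 31.7%, 30% and 32.6% of the detected Igk fragments, against 4.66% of the locus's HindIII fragments. The mean share was 31.4% ± 0.422 for TEPC1165 and 31.3% ± 1.81 for PCT4961 (SD, n = 2 per tumor; exact permutation test, two-sided, p = 1). The step at the window was steep on both sides. In the neighbouring window on the V side, which starts at 6:70400001, 3, 1, 4 and 2 of 69 fragments were detected. In the one beyond it, 6:70800001-71000000, the numbers were 0, 3, 0 and 3 of 49. Over the other 19 windows and all libraries the median was 1 detected fragment and the highest number 11.

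**Figure D1:**
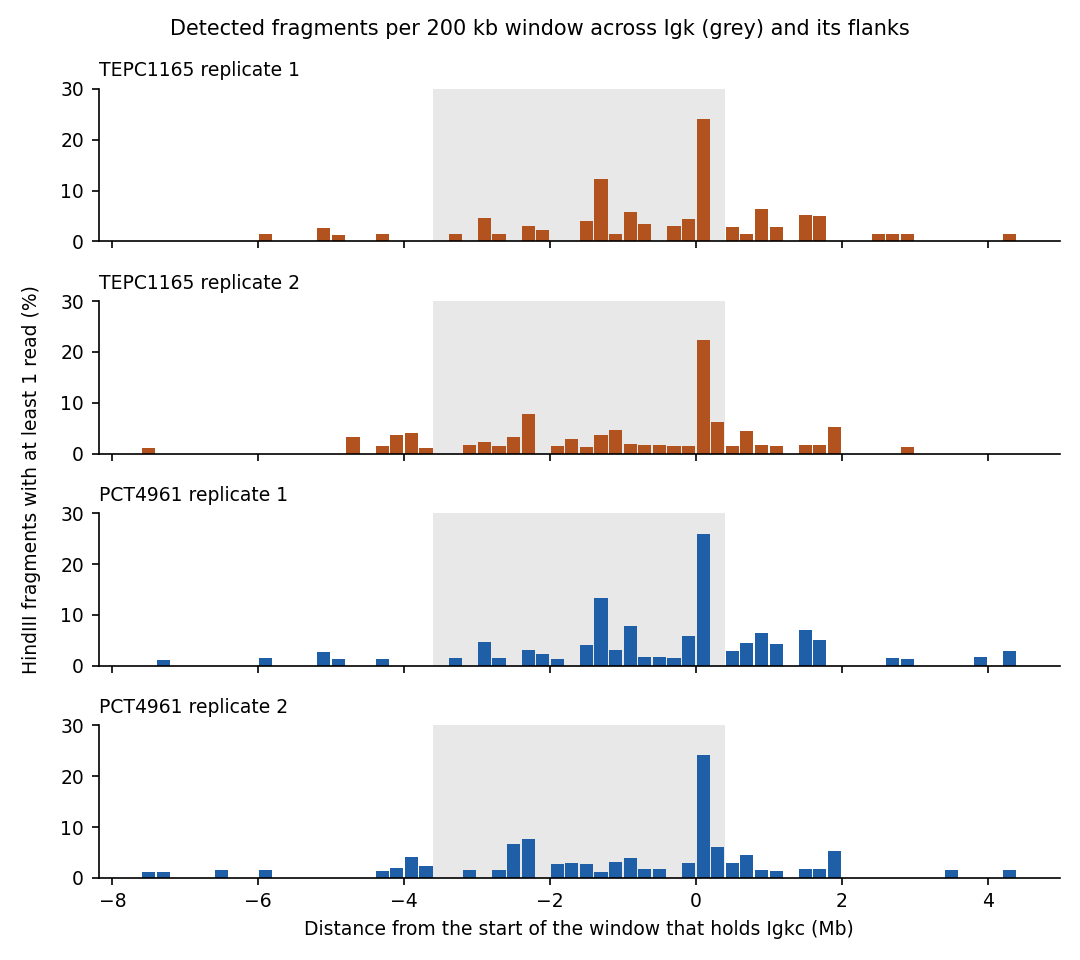
Share of HindIII fragments with at least 1 read (vertical axis, percent) in each 200 kb window, against distance from the start of the Igkc window (horizontal axis, Mb), in 1 panel per library, with Igk in grey. The bar at 0 is the highest of every panel, at 22.4% to 25.9%, and the bar 1.4 Mb before it is high in both replicate 1 libraries (10 and 11 fragments) and low in both replicate 2 libraries (3 and 1).

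Along the V gene array, detection followed the replicate number. Between 69 and 70 Mb, 19 and 21 of 329 fragments were detected in the libraries numbered 1 (TEPC1165, PCT4961), but 9 and 8 in those numbered 2. Between 68 and 69 Mb the order was the other way round, with 3 and 4 of 308 fragments in the libraries numbered 1 and 10 and 13 in those numbered 2. From 67 to 68 Mb, at the far end from Igkc, 4, 3, 4 and 2 of 310 fragments were detected, and from 70 Mb to the Igkc window 5, 3, 6 and 3 of 191. Window 6:69200001-69400000 had the second-highest number of detected fragments in the locus in both libraries numbered 1, with 10 and 11 of 82 fragments, and 3 and 1 in those numbered 2. Its reads were 1353 and 41 in TEPC1165 and 1595 and 175 in PCT4961. In window 6:68200001-68400000, 2, 5, 2 and 5 of 65 fragments were detected, with 92, 192, 6 and 787 reads. Over the locus, 9 of 20 windows were detected in all 4 libraries and 1 window in none. The Igkc window was the 1 window with at least 5 fragments in all 4.

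Contact with Igl was likewise concentrated, over the Iglc1 window and the window after it. In the Iglc1 window 8 and 9 of 59 fragments were detected in TEPC1165 and 7 and 9 in PCT4961, which are 13.6%, 15.3%, 11.9% and 15.3%. Among the 476 windows of chromosome 16 it ranked 2, 1, 2 and 1 by detected fragments. The next window, 16:19200001-19400000, had 9, 4, 8 and 6 of 64 fragments detected and ranked 1, 3.5, 1 and 2. The libraries numbered 1 had their highest count in this second window, and those numbered 2 in the Iglc1 window.

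Together the 2 windows held 81.0%, 68.4%, 88.2% and 71.4% of the detected Igl fragments, against 21.2% of the HindIII fragments of the locus. The Iglc1 window alone held 38.1%, 47.4%, 41.2% and 42.9%, against 10.2%. On the Hira side, window 16:18800001-19000000 had 0 of 56 fragments detected in every library, for which the upper 95% Wilson limit is 6.42%. On the other side, 16:19400001-19600000 had 0, 1, 0 and 2 of 69. The 8 windows outside the pair had 4, 6, 2 and 6 of 457 fragments detected. Of the 10 Igl windows, 3 were detected in all 4 libraries and 2 in none.

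**Figure D2:**
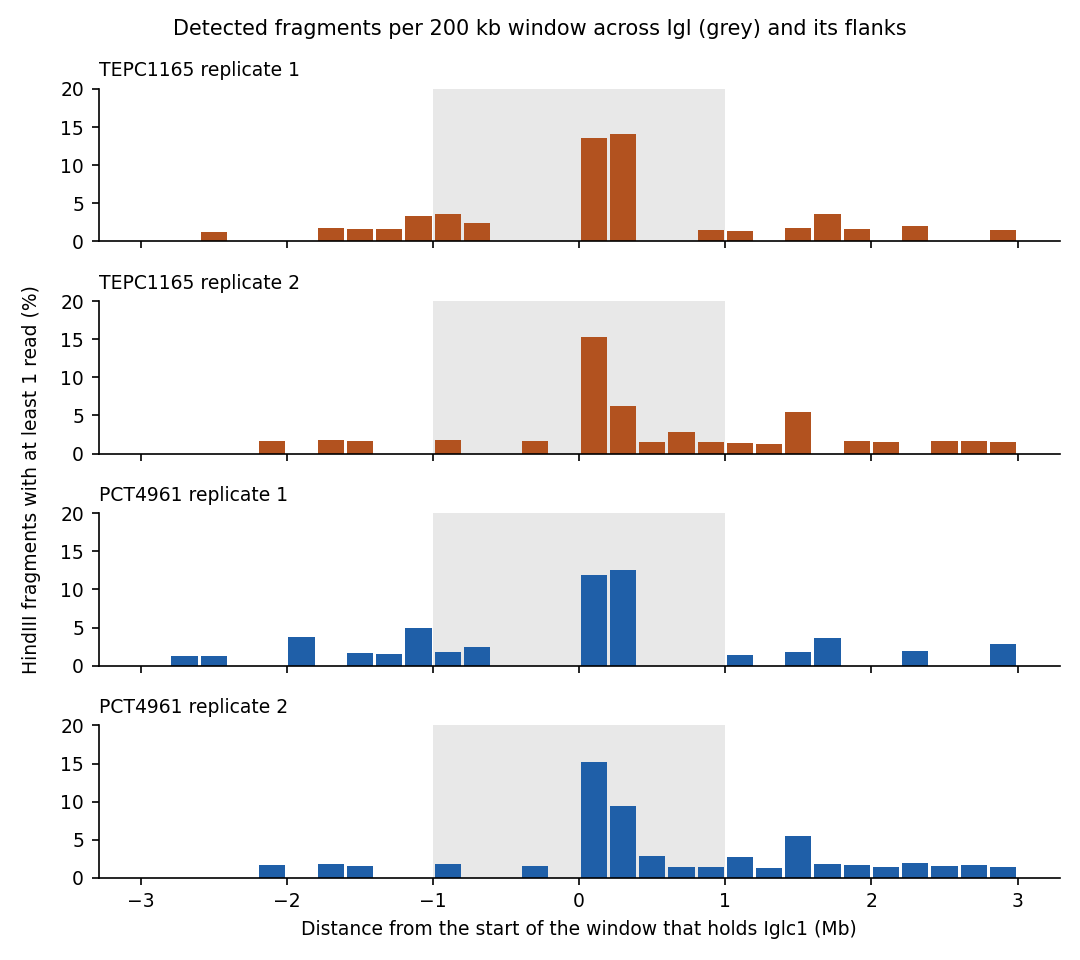
Share of HindIII fragments with at least 1 read (vertical axis, percent) in each 200 kb window, against distance from the start of the Iglc1 window (horizontal axis, Mb), in 1 panel per library, with Igl in grey. The 2 bars from 0 to 0.4 Mb hold 68.4% to 88.2% of the detected fragments of the locus, and the window before them is empty in all 4 panels.

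Detection at both loci was set beside the T cell receptor loci, antigen receptor genes that B cells do not use, and beside the flanks of Igk and Igl. The T cell receptor regions were placed to the nearest Mb from general knowledge of mm9. Of the Igk fragments 45, 41, 50 and 43 of 1245 were detected, a mean of 3.59% ± 0.310 over the 4 libraries. The region of Tcra and Tcrd, with 20 windows between 52 and 56 Mb of chromosome 14, had 11, 9, 14 and 10 of 1246, or 0.883% ± 0.173. The difference of 2.71 ± 0.137 percentage points (SD, n = 4) was positive in 4 of 4 libraries. Its exact sign-flip permutation p was 0.125, two-sided, the smallest that 4 libraries allow, and is not adjusted for the number of comparisons.

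Of the Igl fragments 21, 19, 17 and 21 of 580 were detected, a mean of 3.36% ± 0.330. Tcrb, between 40 and 42 Mb of chromosome 6, had 6, 1, 6 and 3 of 680, or 0.588% ± 0.360. Tcrg, between 18 and 20 Mb of chromosome 13, had 3, 0, 2 and 1 of 696, or 0.216% ± 0.185. Igl exceeded both in 4 of 4 libraries, by 2.77 and 3.15 percentage points (exact sign-flip permutation p = 0.125 each, n = 4). If same-numbered libraries are counted as 1 reading, 2 readings remain, with which no such test can pass.

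The comparison was repeated without the constant-gene windows. Without the Igkc window, Igk still had 2.59% ± 0.261 of its fragments detected and exceeded the Tcra and Tcrd region by 1.71 percentage points in 4 of 4 libraries. Without window 6:69200001-69400000 as well, the difference was 1.33, again in 4 of 4. Without the Iglc1 window, Igl had 2.16% ± 0.288 and exceeded Tcrb by 1.57 and Tcrg by 1.94 percentage points, each in 4 of 4 libraries. Without the next window as well, which takes out 21.2% of the fragments of the locus, Igl had 0.985% ± 0.419 and exceeded Tcrb in 2 of 4 libraries (difference 0.396 percentage points, exact sign-flip permutation p = 0.5, n = 4). It exceeded Tcrg in 4 of 4, by 0.769. In the mean over libraries, Tcrb (0.588%) and Tcrg (0.216%) themselves lay below the rest of chromosome 16 (0.811% ± 0.0503). Whether the remaining Igl windows exceed that level was not tested. How much of the Igl gene group remains in these windows was not determined.

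Taken as whole loci, Igk and Igl lay above their flanks in every library. The 4 Mb below Igk had 5, 9, 6 and 10 of 1441 fragments detected (0.520% ± 0.165), and the 4 Mb above it, beyond the constant-gene end, 19, 12, 24 and 14 of 1268 (1.36% ± 0.424). Below Igl, on the side of the surrogate light-chain genes Vpreb1 and Igll1, which serve in precursor B cells, 6, 3, 9 and 3 of 645 fragments were detected (0.814% ± 0.445). Above Igl the numbers were 7, 10, 7 and 13 of 633 (1.46% ± 0.454). The rest of chromosome 6 had 0.892% ± 0.120 detected and the rest of chromosome 16 0.811% ± 0.0503.

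**Figure D3:**
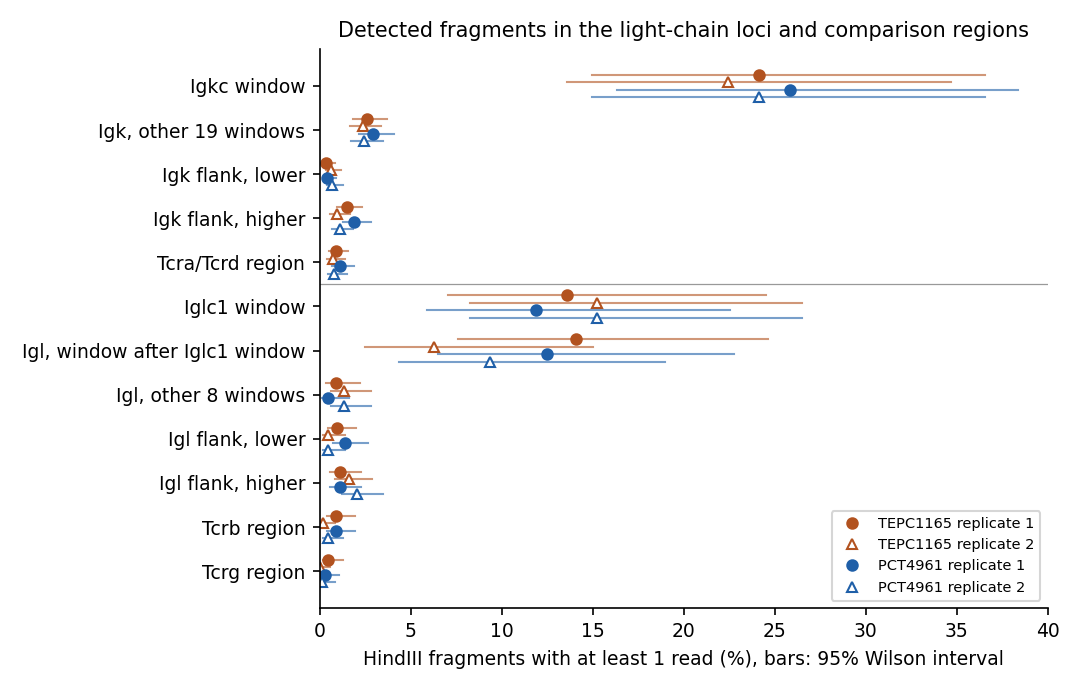
Share of HindIII fragments with at least 1 read (horizontal axis, percent) in the constant-gene windows, the rest of each locus, the flanks and the T cell receptor regions (vertical axis), with 1 point per library and its 95% Wilson interval. The Igkc window lies at 22.4% to 25.9% and the Iglc1 window at 11.9% to 15.3%, and every flank and T cell receptor region lies at 2.05% or lower.

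Both constant-gene windows also stood at the top of the windows outside chromosomes 12 and 15 by repeat detection. Among the 11743 windows outside chromosomes 12 and 15, windows were ordered by their lowest number of detected fragments over the 4 libraries. The Igkc window came first, with 13, and the Iglc1 window second, with 7. These were the 2 windows with at least 7 in all 4 libraries, and 15 windows had at least 4. The next, 6:129000001-129200000, had 6 and is named after its values were seen. The second Igl window had 4 and ranked 7. In single libraries the Igkc window was the first of these 11743 windows by number of detected fragments in all 4, and the Iglc1 window ranked 5, 2, 7 and 2.

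**Figure D4:**
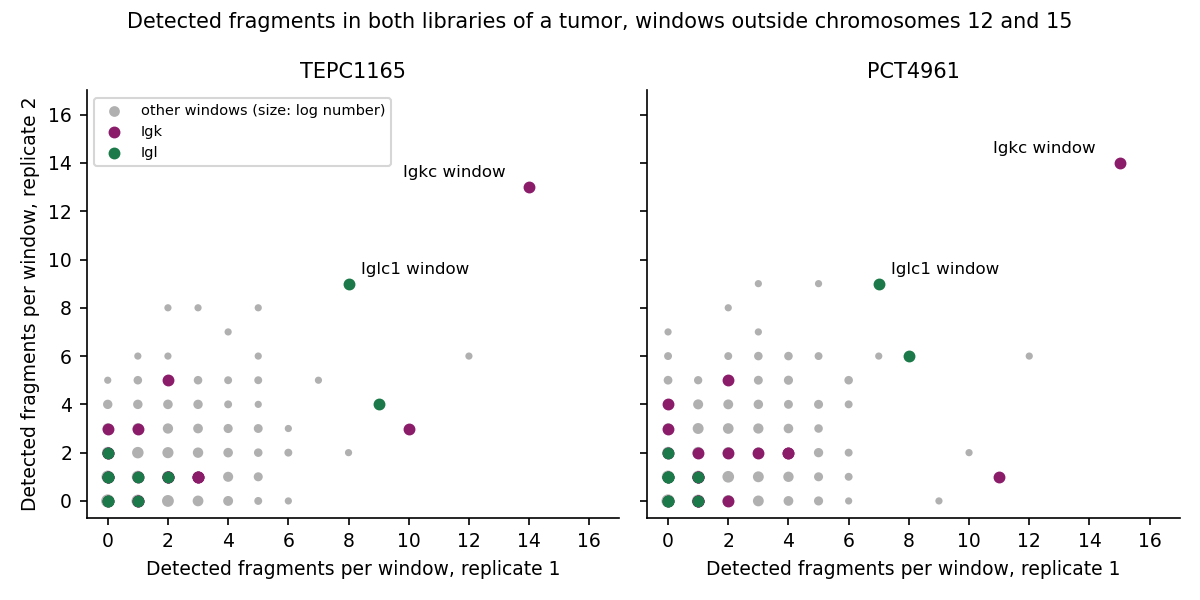
Detected fragments per window in replicate 1 (horizontal axis) against replicate 2 (vertical axis), for TEPC1165 (left) and PCT4961 (right), over the windows outside chromosomes 12 and 15. The Igkc window lies alone at the upper right of both panels, at 14 and 13 and at 15 and 14 fragments.

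Read numbers gave another picture than detection. By reads the Igkc window was higher in both PCT4961 libraries, but the difference did not pass the edgeR test described below (adjusted p = 0.795). Such an order of 2 against 2 libraries cannot by itself show a tumor difference, since its smallest exact permutation p is 0.3333. The Igkc window had 766 and 936 reads in the TEPC1165 libraries and 3542 and 4096 in those of PCT4961. Of all reads outside the bait region, meaning more than 1 Mb from the bait window, these were 0.0441% and 0.0596% for TEPC1165 and 0.338% and 0.300% for PCT4961. The PCT4961 libraries were both higher, although nearly equal numbers of fragments carried the reads. The window had 54.7 and 72 reads per detected fragment in TEPC1165 and 236 and 293 in PCT4961. By reads it ranked first on chromosome 6 in both PCT4961 libraries, but 22 and 12 in TEPC1165.

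Of the Igk reads, the Igkc window held 10.1% and 23.3% in TEPC1165 and 62.4% and 67.6% in PCT4961. The means were 16.7% ± 9.34 and 65.0% ± 3.68 (SD, n = 2 per tumor), and the groups did not overlap (exact permutation test, two-sided, p = 0.3333, the smallest that 2 against 2 libraries allow). The other 19 windows had 6835 and 3083 reads in the TEPC1165 libraries and 2135 and 1964 in those of PCT4961, and their shares of the reads outside the bait region overlapped. Summed over Igk, the share of reads was 0.438% and 0.256% in TEPC1165 and 0.542% and 0.443% in PCT4961, a log2 ratio of 0.51 (exact permutation p = 0.3333, n = 2 each). The direction was not stable. The ratio was −0.76 without the Igkc window, −0.023 with all reads as the base and −0.062 on detected fragments. It was 0.67 with the reads outside chromosomes 12 and 15 as the base. With 1 library left out it ran from 0.17 (without TEPC1165 replicate 2) to 0.94 (without TEPC1165 replicate 1).

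Apart from the Igkc window and 6:69200001-69400000, the Igk windows with most reads rested on 1 to 5 fragments. In TEPC1165 replicate 1 the highest Igk window was 6:69800001-70000000, with 1510 reads on 2 detected fragments, and 6:68400001-68600000 had 1141 reads on 1 fragment. In TEPC1165 replicate 2 the Igkc window was the highest of the locus, and 6:70000001-70200000 followed with 660 reads on 1 fragment. In PCT4961 the Igkc window was again the highest, and the second was 6:69200001-69400000 in replicate 1, with 1595 reads, and 6:68200001-68400000 in replicate 2, with 787. The third places were taken by 6:70800001-71000000 in both replicate 2 libraries, with 534 reads in TEPC1165 and 716 in PCT4961, each on 3 fragments, and by 6:69600001-69800000 in PCT4961 replicate 1, with 152 reads on 4.

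The highest windows of the chromosomes by reads, where they lay outside the loci, also rested on 1 to 3 fragments. The highest of chromosome 6 in TEPC1165 was 6:66200001-66400000 in replicate 1, with 2255 reads, and 6:28000001-28200000 in replicate 2, with 1555 reads, each on 1 fragment. On chromosome 16 the highest windows by reads lay outside Igl in all 4 libraries. They were 16:34200001-34400000 with 1599 reads and 16:66800001-67000000 with 1541 reads in TEPC1165, each on 1 fragment. In PCT4961 they were 16:93800001-94000000 with 1352 reads on 2 fragments and 16:91000001-91200000 with 1058 reads on 3.

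The Iglc1 window moved the other way from the Igkc window in reads. It had 1373 and 1380 reads in the TEPC1165 libraries and 149 and 493 in those of PCT4961. The TEPC1165 libraries were both higher, but this difference did not pass the edgeR test either (adjusted p = 0.823). The rank of the Iglc1 window by reads on chromosome 16 was 5 and 2 in TEPC1165 and 29 and 14 in PCT4961. It had 172 and 153 reads per detected fragment in TEPC1165 and 21.3 and 54.8 in PCT4961. The second Igl window had 1268 and 41 reads in the TEPC1165 libraries and 111 and 96 in those of PCT4961, so the high value was that of 1 library and the groups overlapped.

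Of the Igl reads, the Iglc1 window held 37.0% and 95.4% in TEPC1165 and 48.4% and 43.1% in PCT4961. The pair of windows held 71.2%, 98.3%, 84.4% and 51.4%. Among the remaining Igl windows, 16:18200001-18400000 had 584 reads on 1 fragment in TEPC1165 replicate 1. In PCT4961 replicate 2, 16:18000001-18200000 had 323 reads and 16:19600001-19800000 had 210, each on 1 fragment. Summed over Igl, the reads were 3707 and 1446 in TEPC1165 and 308 and 1145 in PCT4961. As shares of the reads outside the bait region these were 0.214% and 0.0921%, and 0.0294% and 0.0838%, a log2 ratio of −1.43 (exact permutation p = 0.3333, n = 2 each). Its size rested on single libraries: it was −0.70 without TEPC1165 replicate 1, −1.92 without TEPC1165 replicate 2, −0.87 without PCT4961 replicate 1 and −2.38 without PCT4961 replicate 2. On detected fragments it was −0.24.

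**Figure D5:**
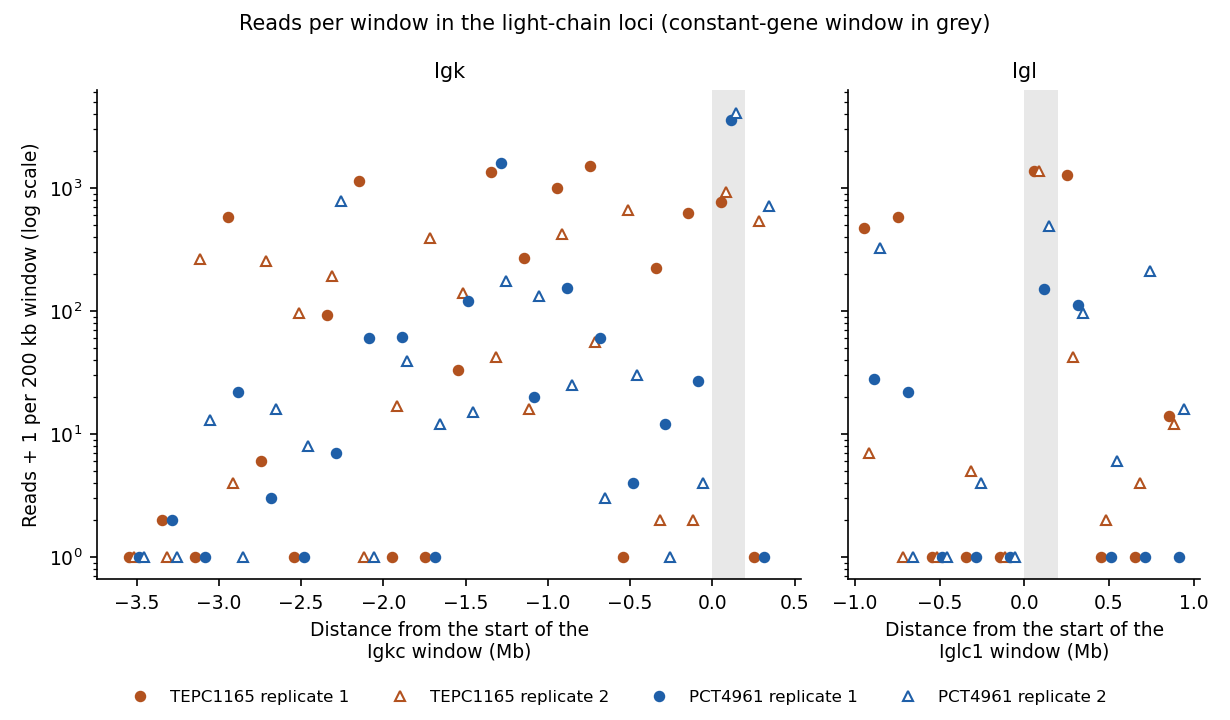
Reads + 1 per 200 kb window (vertical axis, log scale) against distance from the start of the constant-gene window (horizontal axis, Mb) for Igk (left) and Igl (right), with 1 symbol per library and the constant-gene window in grey. In the Igkc window the PCT4961 libraries (3542 and 4096 reads) lie above the TEPC1165 libraries (766 and 936), and in the Iglc1 window the order is reversed (149 and 493 below 1373 and 1380).

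Each window was tested for a difference between the tumors with edgeR's quasi-likelihood test, fitted over the 3449 windows with enough reads. Of the 30 light-chain windows 22 were tested (17 of Igk and 5 of Igl) and 0 were called at an adjusted p under 0.05, where 0.522% of all tested windows were called (18 of 3449). At an unadjusted p under 0.05 there was 1, the Igkc window, with 58 among all windows. DESeq2 called 0 of the 22 and had 0 at an unadjusted p under 0.05, with 0 called and 165 unadjusted over all windows. The median log2 fold change of the 22, PCT4961 over TEPC1165, was −2.25, beside −1.01 for all tested windows, and 8 were positive and 14 negative. These medians depended on the libraries: they were 0.27 and 0.84 without TEPC1165 replicate 1, and −0.29 and 0.84 without TEPC1165 replicate 2.

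The Igkc window had a log2 fold change of 2.80 (SE 1.21, edgeR unadjusted p = 0.0307, adjusted p = 0.795). Relative to the median of all windows this was 3.81. Without TEPC1165 replicate 1 it was called, with a log2 fold change of 3.10 and an edgeR adjusted p of 0.0274. The Iglc1 window had −1.30 (SE 2.24, edgeR adjusted p = 0.823), and relative to the median −0.29, a sign that turned without PCT4961 replicate 1 (0.033). By reads the PCT4961 libraries were both higher in the Igkc window and both lower in the Iglc1 window. Neither difference passed the test with all libraries. The rest of each chromosome had the same order as its window in its share of the reads outside the bait region. For chromosome 6 this was 2.41% and 2.00% in TEPC1165 and 2.82% and 2.96% in PCT4961. For chromosome 16 it was 1.90% and 1.72%, and 1.67% and 1.24%. How many of all windows separate the tumors in this way was not counted.

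Reads of same-numbered libraries were also set side by side at these windows. In the Igkc window the TEPC1165 libraries had 21.6% (number 1) and 22.9% (number 2) as many reads as the PCT4961 library of the same number. Over the Mycn region of chromosome 12, where PCT4961 had 266237 and 373539 reads, that percentage was 2.34% and 1.51%. In the Iglc1 window the PCT4961 libraries had 10.9% and 35.7% as many reads as their TEPC1165 counterparts, and over Myc and Pvt1 on chromosome 15, where TEPC1165 had 419360 and 542564 reads, 4.53% and 4.46%. These percentages are descriptions, and whether the Mycn and Myc regions give a level of reads shared between same-numbered libraries was not tested. What part of the lower library's reads in the light-chain windows also came from the library of the same number was not tested.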

How the data were processed

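Per the file headers, the authors deposited raw read counts, counts of HindIII fragments with at least 1 read, and counts of all HindIII fragments for 200 kb windows of mm9. Which aligner was used, and whether PCR copies were removed, is not given in the sources used here. The 30 other samples of the series were not used.

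The 11 windows within 1 Mb of the bait window (the bait region) were left out of read shares and tests. Tested windows had 10 or more reads in 2 or more libraries, and the test was edgeR 4.0.16 (R 4.3.3; quasi-likelihood test, TMM factors, prior count 2, tumor as the term, two-sided, Benjamini-Hochberg over all 3449 windows). The SE given with an edgeR log2 fold change was derived from the test. It is the absolute log2 fold change divided by the square root of the test's F statistic. DESeq2 1.42.0 was an alternative. Simulated counts were used to test the script. Shares were compared by exact permutation tests (scipy 1.17.1). Ranks run from 1, the highest, with ties averaged. Nothing in the labels ties replicates to separate cultures, so p-values measure only the spread between libraries, which may be technical. Reads are not independent molecules, so intervals cover counting error only.

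Named windows were the Igkc and Iglc1 windows, the 3 highest by reads of each locus and library, called windows, and each library's highest window of chromosomes 6 and 16. The loci, lists and comparison regions were chosen with earlier results of these data known. No mm9 annotation of gene positions was used here, so gene groups within the windows were not compared.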

Additional observations from a re-analysis of the deposited data

How the results depend on the processing

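The comparison with T cell receptor regions and its repeats were chosen after seeing the data. The number of light-chain windows called was 0 with other scalings, filters or tests that kept all libraries, and 0 to 1 with a library left out, the 1 being the Igkc window without TEPC1165 replicate 1. Where 1 library stood for a tumor, its spread was taken from the other tumor. The log2 fold change of the Igkc window ran from 2.03 to 4.12 and that of the Iglc1 window from −2.54 to −0.29. Over all windows, where 18 were called, the number was 27 with total-read scaling, 0 with DESeq2, 11 with the stricter filter, 12 with the replicate block, 2 among windows outside chromosome 12, and 0 to 41 with a library left out. The median log2 fold change of all windows moved from −1.01 to −1.70 with DESeq2 size factors; relative to that median the Igkc window lay between 2.26 and 3.81 over all settings and the Iglc1 window between −1.97 and 0.033. With the replicate block 0 were called, and the Igkc window had 2.75 (edgeR adjusted p = 0.726). Over 3449 windows the deviations of same-numbered libraries correlated at 0.678, a hint from the data only, since no label says that a number marks a pair.

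The log2 ratio of Igk read shares turned to −0.023 with all reads of the library as the base, −0.062 with detected fragments, and −0.76 without the constant-gene window. It was 0.67 with the reads outside chromosomes 12 and 15 as the base, and its sign stayed in 5 of 8 alternatives. With 1 library left out it ran from 0.17 to 0.94. That of Igl stayed negative under its 8 alternatives, from −2.38 to −0.24. The Igkc window's share of Igk moved from 16.7% to 31.4% (detected fragments) and 27.5% (with the next window on each side) in TEPC1165, and to 9.43% on log2(reads + 1); the libraries alone gave 10.1% and 23.3%. In PCT4961 it moved from 65.0% to 31.3%, 71.2% and 14.8%. The Iglc1 window's share in TEPC1165 moved from 66.2% to 42.7% on detected fragments, 84.8% with its neighbours and 31.2% on the log scale, and the libraries alone gave 37.0% and 95.4%. In PCT4961 it moved from 45.7% to 67.9% with its neighbours and 26.6% on the log scale. By detected fragments, and by their share, the mean rank of the Igkc window in TEPC1165 went from 17 to 1, and that of the Iglc1 window in PCT4961 from 21.5 to 1.5. The mean differences from the T cell receptor regions stayed positive. Without both the Iglc1 window and the next, however, Igl exceeded Tcrb by 0.396 percentage points and in only 2 of 4 libraries. Only 1.12% to 1.36% of fragments were detected, so single fragments decide most windows outside the constant-gene ends.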
